A study of Mus musculus with 28 samples.

Results

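The microRNAs miR-132 and miR-212 are made from neighbouring hairpins, each of which gives a 5p and a 3p arm, so 4 mature miRNAs are described here: mmu-miR-132-3p, mmu-miR-132-5p, mmu-miR-212-3p and mmu-miR-212-5p, the prefix standing for mouse. They were found by their mature names and are 4 of the 1485 mature names counted in the series. Each was listed under 1 hairpin. miR-132-3p and miR-132-5p had reads in 28 of 28 libraries, and miR-212-3p and miR-212-5p in 27 of 28.

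A microRNA guides a silencing complex to messenger RNAs that pair with its seed, the bases near its 5′ end. The transcript that carries both hairpins is best known from neurons, where the factor CREB induces it. In mouse heart muscle cells the pair is known to promote growth of the cell: it represses the growth-restraining factor FoxO3, mice lacking the cluster are protected from overload hypertrophy, and mice with extra copies in the heart develop hypertrophy and failure. The label "hypertrophy-linked" rests on that background, since no heart or cell size was used here.

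The libraries hold small RNA from the left ventricle, away from the infarct, of outbred mice of the Hsd:ICR(CD-1) stock. Mice had a myocardial infarction (MI), made by tying off the left anterior descending (LAD) coronary artery, or a sham operation. The operation was on postnatal day 1 (P1), when an injured mouse heart is known to regenerate, or day 7 (P7), when this capacity is mostly lost. In 1 set, hearts were taken 3 days after the operation, when mice were 4 or 10 days old (4 libraries in each of sham P1, MI P1, sham P7 and MI P7). In the other, they were taken after 21 days, when mice were 22 or 28 days old (3 libraries in each). The labels do not state that each library is a different mouse, so p-values measure the spread between libraries.

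The 3-day and 21-day libraries were made with different kits, so their levels are not compared. Library totals, as deposited, were 1.29 to 13 M (1e6) counts for the 3-day and 18.2 to 26.9 M counts for the 21-day follow-up. Summed levels of 5 cardiomyocyte miRNAs were 88800 to 324000 CPM (counts per 1e6, scaled by the TMM method of edgeR) at 3 days and 56000 to 157000 CPM at 21 days, and all 5 were above 0 in every group. The sham P1 libraries of 3 days carry 2 codes in their titles and stand apart by code: over all 4, the summed endothelial markers ranged from 3910 to 158000 CPM. Fitted changes of the arms that use these libraries are therefore given with and without each code.

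The mature sequences are shown first because the seed, bases 2 to 8 and here in capitals, groups the 3p arms together and sets each 5p arm apart. All 4 were matched in RefSeq (mouse build GRCm38.p6).

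miR-132-3p: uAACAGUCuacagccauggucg
miR-212-3p: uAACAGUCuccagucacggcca
miR-132-5p: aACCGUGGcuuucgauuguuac
miR-212-5p: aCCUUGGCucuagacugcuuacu

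The 3p arms share the seed AACAGUC, and no other mature name in the files that was matched to RefSeq has it. Counted from the 5′ end, with the base of miR-132-3p first, the 3p arms differ by A10C, C14U, U17C, U20C and G22A. These 5 differences lie outside the seed. The 5p arms have seeds of their own, ACCGUGG and CCUUGGC, each on 1 mature name.

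The hairpins, shown because their order and spacing define the cluster, have the 5p arm first and the 3p arm second, both in capitals:

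Mir212: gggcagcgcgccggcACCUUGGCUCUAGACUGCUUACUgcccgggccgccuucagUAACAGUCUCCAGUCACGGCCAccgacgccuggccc
Mir132: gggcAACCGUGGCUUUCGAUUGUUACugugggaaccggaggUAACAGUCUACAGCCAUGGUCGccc

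Mir212 lies at chr11:75173388-75173478 and Mir132 at chr11:75173682-75173747, both on the plus strand and 203 bases apart. The GENCODE annotation of the same build places both inside 1700016P03Rik, a processed transcript without an annotated protein (chr11:75172560-75177633, plus strand). Neither hairpin overlaps its exons. They lie in the first intron, between an exon that ends at 75172597 and one that starts at 75173978. Hic1, upstream, and Ovca2, which overlaps the 3′ end of the transcript, are on the minus strand.

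**Figure D1:**
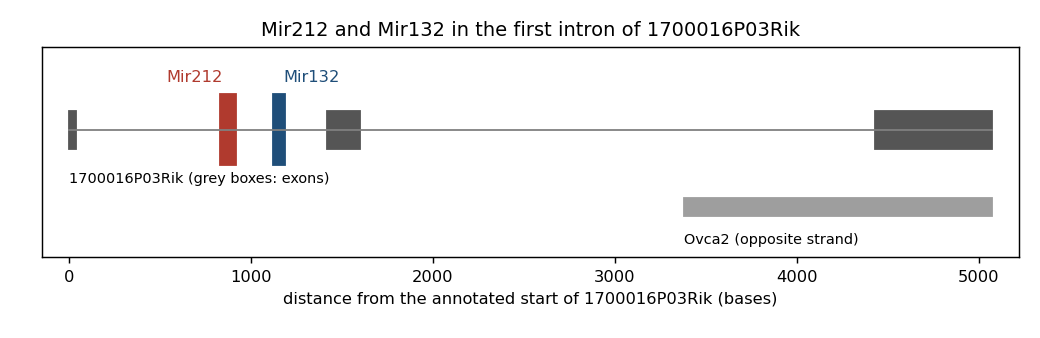
Map of 1700016P03Rik to scale, in bases from its annotated start, with its exons as grey boxes, the Mir212 (red) and Mir132 (blue) hairpins, and the overlapping stretch of Ovca2. Mir212 comes first along the strand, with 203 bases between it and Mir132, and both hairpins lie in the first intron.

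The arms were low to middling in abundance. All are 22 or 23 bases long, so levels were not scaled by length. Over the 3-day libraries the mean level was 49.1 CPM for miR-132-3p, 7.26 CPM for miR-132-5p, 5.85 CPM for miR-212-3p and 5.13 CPM for miR-212-5p. miR-132-3p ranked 231st of 1313 detected miRNAs. Over the 21-day libraries the means were 64.2, 5.27, 9.68 and 4.85 CPM in the same order, and miR-132-3p ranked 170th of 1367. Behind the 3-day values stand 10 to 466 reads per library for miR-132-3p, 1 to 119 for miR-132-5p and 0 to 39 for each miR-212 arm; at 21 days the lowest count of any arm was 51. The 3-day values of the minor arms thus rest on few reads.

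At 3 days after MI at P7, mmu-miR-212-3p was higher than in sham hearts and was the 1 arm of 3 tested that passed, where 5.61% of all tested miRNAs did. It stood at 13.8 ± 5.30 CPM in MI hearts and 2.27 ± 1.74 CPM in sham hearts (SD, n = 4 each). mmu-miR-132-3p stood at 71.3 ± 19.6 and 23.5 ± 15.1 CPM, and mmu-miR-132-5p at 8.28 ± 1.86 and 2.61 ± 1.73 CPM. For these 3 arms every MI library was above every sham library, as it was for 14.6% of the miRNAs tested in this comparison. mmu-miR-212-5p had 11.4 ± 5.48 and 3.51 ± 2.85 CPM, with overlapping groups.

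By library, in replicate order, miR-212-3p was at 4.24, 2.52, 0 and 2.34 CPM in sham P7 and at 20.8, 11.1, 14.7 and 8.54 CPM in MI P7. The reads behind these values were 5, 2, 0 and 4 in sham and 18, 13, 20 and 10 in MI. The library at 0 is compatible with up to 3.29 CPM, the level of 3 reads at its depth, counting error only. The lowest MI library lay above the highest sham library.

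The fitted log2 fold change of miR-212-3p was 2.52 ± 0.61 (SE, 5.75-fold, adjusted p = 0.0257, edgeR's quasi-likelihood test with Benjamini-Hochberg adjustment over 446 miRNAs), the 13th smallest p of 446. Of all miRNAs in this comparison, 23 passed as higher and 2 as lower. miR-212-3p entered the test through the group where it was high: 4 MI P7 libraries, 1 MI P1 library and no sham library reached the filter's 6.14 CPM. With no filter its log2 fold change was 2.49 and its adjusted p = 0.0802 over 1313 miRNAs. The adjusted p was 0.0648 when sham P7 replicate 2 was left out, 0.0538 when sham P7 replicate 4 was left out and 0.086 when MI P7 replicate 1 was left out, with log2 fold changes of 2.54, 2.52 and 2.23.

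No title code occurs in both a sham and an MI group of 3 days. At P7 the 4 sham libraries share 1 code and the MI libraries carry 3 others, so what the code stands for and the operation cannot be told apart. With the code as a random effect in limma-voom, at an estimated correlation of 0.642, the log2 fold change of miR-212-3p was 2.69 ± 1.37 (SE, adjusted p = 0.996), and 0 of 446 miRNAs were called where edgeR had called 25.

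miR-132-3p, the more abundant arm with the same seed, was at 20.3, 12.6, 15.4 and 45.7 CPM in sham P7 and at 69.2, 53.0, 98.9 and 64.0 CPM in MI P7. Sham replicate 4 was the high sham library, and all MI libraries were above it. The fitted change was a log2 value of 1.58 ± 0.46 (SE, edgeR adjusted p = 0.0567), which missed the threshold. It passed in 11 of 28 alternatives, among them limma-voom (adjusted p = 0.0445) and the fit of only the P7 groups (adjusted p = 0.0144), and missed it in the others, among them no filter (adjusted p = 0.27) and limma-voom where the code was a random effect (1.25 ± 0.97, adjusted p = 0.996).

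miR-132-5p, from the other side of the same hairpin, was at 3.39, 1.26, 1.10 and 4.68 CPM in sham P7 and at 5.77, 8.55, 10.3 and 8.54 CPM in MI P7. These levels rest on 1 to 14 reads. Here edgeR gave a log2 fold change of 1.55 ± 0.55 (SE, edgeR adjusted p = 0.119).

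miR-212-5p, at 5.09, 2.52, 0 and 6.44 CPM in sham P7 and 13.9, 4.28, 10.3 and 17.1 CPM in MI P7, did not pass the filter at 3 days and has no test in the main fit. MI replicate 2 lay below 2 sham libraries. With no filter its log2 fold change was 1.52 ± 0.69 (SE, edgeR adjusted p = 0.466).

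**Figure D2:**
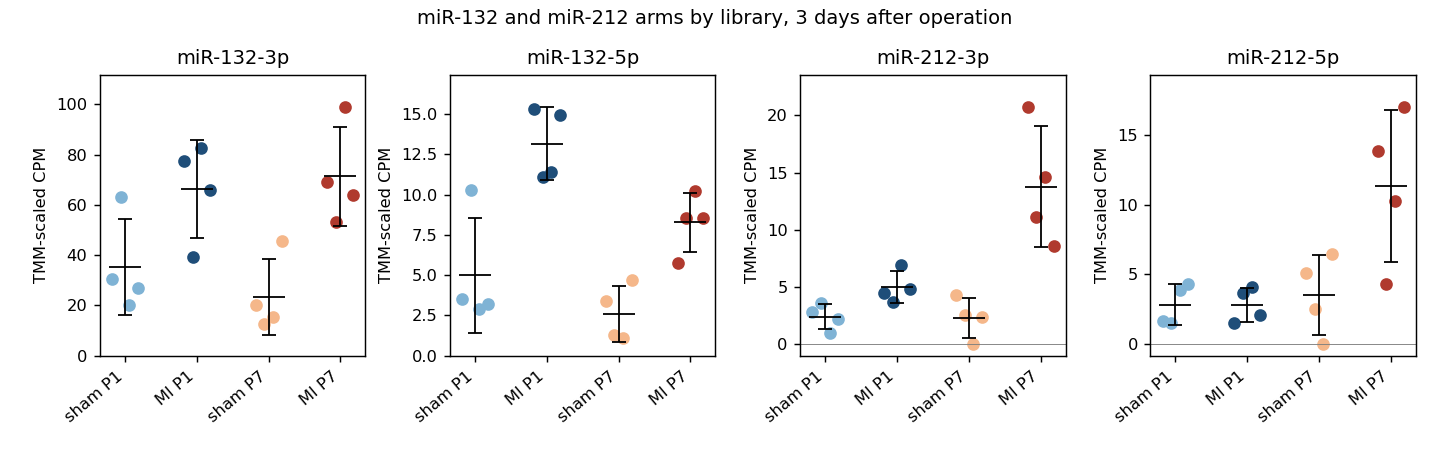
Levels of the 4 arms in each 3-day library (TMM-scaled CPM, a linear axis per arm), with points for libraries and bars for mean ± SD of 4 libraries. The MI P7 points of miR-212-3p, from 8.54 to 20.8 CPM, sit above all other 3-day libraries, whose highest value is 6.92 CPM, while miR-132-5p is highest in MI P1.

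Summed over the 3p arms, which share a seed, the level was 85.1 ± 21.8 CPM in MI P7 and 25.8 ± 15.5 CPM in sham P7 (SD, n = 4 each). The ranges, 64.1 to 114 and 15.1 to 48.0 CPM, did not overlap. miR-132-3p supplied most of the sum in every 3-day library: the reads of miR-212-3p were 0 to 30.0% of those of miR-132-3p, with the highest value in MI P7 replicate 1.

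Sums of some cell type markers lay apart between the same groups. The 5 cardiomyocyte miRNAs summed to 153000 to 170000 CPM in MI P7 and 211000 to 324000 CPM in sham P7. The 3 fibroblast-associated miRNAs summed to 2720 to 5040 CPM against 765 to 1640 CPM, and the skeletal muscle miRNA miR-206-3p was at 16.2 to 41.0 CPM against 0.848 to 3.51 CPM. In edgeR 0 of the 5 cardiomyocyte and 0 of the 3 fibroblast-associated miRNAs passed, and DESeq2 called 0 and 1. miR-206-3p passed in edgeR. The sums of the endothelial, mural, leukocyte and erythroid lists overlapped between MI P7 and sham P7. Of the 8 neuronal miRNAs, the list for the tissue in which the cluster is best known, 5 were above 0 in MI P7 and 7 in sham P7, with sums of 425 to 656 and 477 to 986 CPM; miR-124-3p, the defining neuronal miRNA, was at 0 in every 3-day group. The part of the cardiomyocyte, fibroblast-associated and skeletal muscle lists in the values of the arms was not tested. In bulk tissue fewer cells of a type and less RNA per cell cannot be told apart.

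At 3 days after MI at P1, 0 of the 3 tested arms passed, while 18.4% of the 446 miRNAs did (6 higher and 76 lower). An unadjusted p under 0.05 in edgeR was seen for 1 arm, miR-132-5p, and for 159 of the 446 miRNAs. DESeq2 called the same arm, and its share over all miRNAs is not given here. miR-132-5p was at 3.50, 10.3, 2.89 and 3.23 CPM in sham P1 and at 15.3, 11.1, 11.4 and 14.9 CPM in MI P1. Every MI library was above every sham library, by the least against sham replicate 2. Ranges lay apart in this direction for 6.73% of tested miRNAs. Its log2 fold change was 1.32 ± 0.47 (SE, edgeR adjusted p = 0.0549), and the DESeq2 Wald test gave 1.46 with an adjusted p = 0.0164. This arm, too, entered the test mainly through the groups where it was high: 4 MI P1 and 3 MI P7 libraries reached 6.14 CPM, and 1 sham P1 and no sham P7 library did. With no filter its log2 fold change was 1.53 (edgeR adjusted p = 0.193 over 1313 miRNAs).

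miR-132-3p was at 30.3, 63.3, 20.2 and 26.9 CPM in sham P1 and at 77.5, 39.1, 82.6 and 66.0 CPM in MI P1. The groups overlapped, since MI replicate 2 was below sham replicate 2. Its log2 fold change was 0.90 ± 0.44 (SE, edgeR adjusted p = 0.151).

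miR-212-3p was at 2.80, 3.57, 0.964 and 2.15 CPM in sham P1 and at 4.49, 3.63, 6.92 and 4.84 CPM in MI P1. The lowest MI library was just above the highest sham library. In edgeR the log2 fold change was 0.94 ± 0.54 (SE, edgeR adjusted p = 0.226). miR-212-5p ranged from 1.5 to 4.3 CPM in sham P1 and from 1.5 to 4.07 CPM in MI P1, with means of 2.82 and 2.83 CPM.

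The values at P1 moved with the title codes of the sham libraries. Without the code 1103 libraries (replicates 3 and 4), the log2 fold changes were 0.44 for miR-132-3p, 0.86 for miR-132-5p and 0.54 for miR-212-3p (edgeR adjusted p of 0.667, 0.536 and 0.633), and 0 of 483 miRNAs were called. Without the code 1078 libraries (replicates 1 and 2), an alternative chosen after seeing the data, they were 1.26, 1.87 and 1.30 (edgeR adjusted p of 0.0199, 0.00402 and 0.122), in a fit that called 348 of 459 miRNAs, or 75.8%. With the code as a random effect limma-voom called 0 of 446. Without sham P1 replicate 2 alone, miR-132-3p had 1.34 (edgeR adjusted p = 0.0316) and miR-132-5p 1.99 (edgeR adjusted p = 0.00633), where 35.7% of all tested miRNAs were called. The sham libraries also differed in depth, from 1.56 to 9.26 M deposited counts, against 5.61 to 13 M in MI P1. Summed fibroblast-associated markers were 8310 to 12700 CPM in MI P1 and 569 to 4770 CPM in sham P1, and the 5 leukocyte miRNAs 2510 to 4550 and 1700 to 2200 CPM. The cardiomyocyte miRNAs summed to 88800 to 158000 and 157000 to 254000 CPM, and the 4 erythroid miRNAs to 932 to 1460 and 1670 to 11100 CPM. Members did not all move with these sums. In edgeR, 3 of 5 cardiomyocyte and 3 of 4 erythroid miRNAs had a positive log2 fold change. miR-133a-3p (-1.48) and miR-486a-5p (-2.47) were called lower. Of the leukocyte miRNAs 4 of 5 were positive, with miR-142a-3p called higher (2.71) and miR-150-5p called lower (-1.89). miR-206-3p, known from skeletal muscle, rose by 2.21 ± 0.56 (SE, log2, edgeR adjusted p = 0.023). The part of these markers in the values of the arms was not tested.

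Side by side, the MI effects at P7 and P1 of 3 days were 2.52 and 0.94 for miR-212-3p, 1.58 and 0.90 for miR-132-3p, and 1.55 and 1.32 for miR-132-5p, as log2 fold changes. The difference for miR-212-3p, P7 minus P1, was 1.59 ± 0.82 (SE, edgeR adjusted p = 0.325), with a range of 2 SE from -0.047 to 3.22. For miR-132-3p it was 0.68 ± 0.63 and for miR-132-5p 0.23 ± 0.71 (edgeR adjusted p of 0.592 and 0.899). In edgeR 0 of 446 miRNAs passed for this difference (0% of those tested). An unadjusted p under 0.05 was seen for 71, none of them one of these arms, and DESeq2 called none of these arms. Without the code 1103 libraries the differences were 1.95 for miR-212-3p, 1.12 for miR-132-3p and 0.64 for miR-132-5p (edgeR adjusted p of 0.341, 0.491 and 0.757). Without the code 1078 libraries they were 1.17, 0.28 and -0.38 (edgeR adjusted p of 0.313, 0.678 and 0.653). In the latter fit 65.6% of all tested miRNAs were called for this difference, miR-212-5p among them (2.22, edgeR adjusted p = 0.0456).

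In sham hearts of 3 days, P7 against P1, the log2 differences were -0.57 ± 0.45 for miR-132-3p, -0.89 ± 0.54 for miR-132-5p and -0.13 ± 0.63 for miR-212-3p (SE). None of the 3 tested arms passed in edgeR or DESeq2 or had an unadjusted p under 0.05 (edgeR adjusted p of 0.358, 0.236 and 0.893). Of all tested miRNAs 22% passed in edgeR, and 169 of 446 had an unadjusted p under 0.05. The median over all miRNAs in this comparison was -0.53. Without the code 1103 libraries the differences were -0.85, -1.15 and -0.33 in the same order (edgeR adjusted p of 0.0889, 0.0631 and 0.658, with 72.9% of all tested miRNAs called), and without the code 1078 libraries 0.018, -0.096 and 0.48 (edgeR adjusted p of 0.979, 0.979 and 0.754, with 15.9% called).

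Ordered by mean level, the 3-day groups ran MI P7, MI P1, sham P1 and sham P7 for miR-132-3p, and each neighbouring pair overlapped. For miR-212-3p the order was the same, with MI P7 clear of MI P1 (8.54 to 20.8 against 3.63 to 6.92 CPM, a difference not tested between these groups), and the sham groups overlapping. For miR-132-5p MI P1 came first, at 13.2 ± 2.24 CPM, with its range of 11.1 to 15.3 CPM clear of the 5.77 to 10.3 CPM of MI P7, also not tested. How many of all miRNAs lie apart between MI P7 and MI P1 was not counted. These groups also differ in age, in title codes and in depth, at 1.29 to 1.95 M and 5.61 to 13 M deposited counts.

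At 21 days after the operation, none of the 4 arms passed in edgeR or DESeq2 in any comparison, and 1 value, miR-212-3p after MI at P1, had an unadjusted p under 0.05. Each 21-day group carries a title code that no other group has, so code and group cannot be told apart. The sham P1 libraries were all on sequencing lane 3. Of MI P1, replicate 1 was on lane 3 and replicates 2 and 3 were on lane 5. The part of the lane was not tested. After MI at P1, miR-212-3p was at 8.28, 6.11 and 8.31 CPM, against 10.04, 11.04 and 12.6 CPM in sham P1. Every MI library was below every sham library, as it was for 10% of the miRNAs tested in this comparison. That gave miR-212-3p a log2 fold change of -0.57 ± 0.21 (SE, unadjusted p = 0.0166, adjusted p = 0.648, edgeR over 598 miRNAs). Of all tested miRNAs here 0.502% passed, and 43 of 598 had an unadjusted p under 0.05. miR-212-3p was lower in 22 of 22 alternatives, which share most of their libraries, with log2 fold changes from -0.76 to -0.42. Sums of the neuronal miRNAs, all 8 above 0, were 259 to 284 CPM in MI P1 and 298 to 379 CPM in sham P1, and those of the erythroid miRNAs 70400 to 75700 and 35700 to 59000 CPM. None of the 6 neuronal and 4 erythroid miRNAs tested passed in edgeR or DESeq2, and 2 and 0 had an unadjusted p under 0.05. The 2 neuronal miRNAs went opposite ways, miR-9-5p at 0.79 ± 0.32 and miR-153-3p at -0.77 ± 0.35 (SE, log2), and 3 of 6 were positive. The part of both lists in the level of miR-212-3p was not tested.

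miR-132-5p was at 5.13, 3.26 and 3.99 CPM in MI P1 and at 5.38, 6.31 and 5.32 CPM in sham P1 at 21 days, again without overlap. Its log2 fold change was -0.46 ± 0.29 (SE, edgeR adjusted p = 0.751). Ranges lay apart in this direction for 10% of the 598 miRNAs. miR-132-3p, at 45.4 to 58.7 and 54.2 to 65.5 CPM, and miR-212-5p, at 4.08 to 4.81 and 4.33 to 5.67 CPM, overlapped, with log2 fold changes of -0.20 ± 0.19 and -0.15 ± 0.19 (SE).

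After MI at P7 and 21 days, 22.1% of tested miRNAs passed and 0 of the 4 arms did; none of the arms had an unadjusted p under 0.05, and DESeq2 called none. miR-132-5p was at 5.09, 6.08 and 2.49 CPM in MI P7 and at 6.11, 6.26 and 7.80 CPM in sham P7. All MI libraries were lower, with replicate 3 the lowest of the 21-day set and replicate 2 just under the sham range, and ranges lay apart this way for 18.7% of tested miRNAs. Fitted, this was a log2 fold change of -0.56 ± 0.29 (SE, edgeR adjusted p = 0.172).

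miR-132-3p was at 87.4, 58.4 and 72.2 CPM in MI P7 and at 64.8, 72.3 and 71.0 CPM in sham P7, a log2 fold change of 0.067 ± 0.19 (SE, range of 2 SE from -0.31 to 0.44). The sham values lay inside the MI range. miR-212-3p ranged from 7.19 to 10.5 and from 9.67 to 12.7 CPM, and miR-212-5p from 4.68 to 5.23 and from 4.98 to 5.77 CPM. Their log2 fold changes were -0.28 ± 0.21 and -0.11 ± 0.19 (SE), and with total count scaling, which moved the median of all miRNAs by 0.35, they were 0.079 and 0.24. Summed cardiomyocyte markers were 56000 to 92600 CPM in MI P7 and 134000 to 157000 CPM in sham P7, and fibroblast-associated markers 9690 to 27400 and 5310 to 6290 CPM. The neuronal miRNAs summed to 182 to 279 CPM in MI P7 and 306 to 438 CPM in sham P7, and of the 6 tested miR-128-3p (-1.17 ± 0.30) and miR-9-3p (-1.39 ± 0.35) fell (SE, log2, edgeR adjusted p of 0.0151 each). Of the same 6, 2 had a positive value, miR-219a-5p (0.85 ± 0.55) and miR-153-3p (0.091 ± 0.35), neither of them called. The 2 endothelial miRNAs summed to 31900 to 50300 and 51900 to 58300 CPM. The part of these markers in the values of the arms was not tested.

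**Figure D3:**
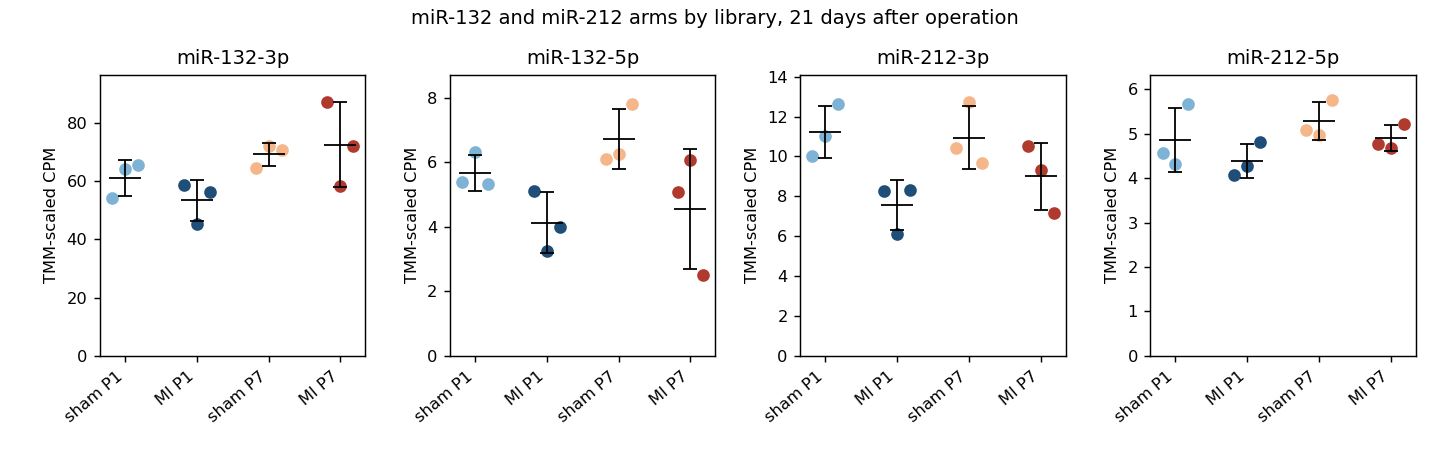
Levels of the 4 arms in each 21-day library (TMM-scaled CPM, a linear axis per arm), with points for libraries and bars for mean ± SD of 3 libraries. In miR-212-3p the MI P1 points, 6.11 to 8.31 CPM, lie below the sham P1 points, 10.04 to 12.6 CPM, and the groups of miR-132-3p and miR-212-5p overlap within each operation day.

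The P7 minus P1 differences of the MI effects at 21 days were 0.26 ± 0.27 for miR-132-3p, -0.10 ± 0.41 for miR-132-5p, 0.29 ± 0.29 for miR-212-3p and 0.039 ± 0.27 for miR-212-5p (SE, log2). None of the 4 passed (edgeR adjusted p from 0.532 to 0.936), and 9.87% of tested miRNAs did. In sham P7 against sham P1 the 4 log2 differences ran from -0.038 to 0.25, 0 arms passed in edgeR or DESeq2 and none had an unadjusted p under 0.05, and 0% of the 598 miRNAs passed, with 72 at an unadjusted p under 0.05.

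**Figure D4:**
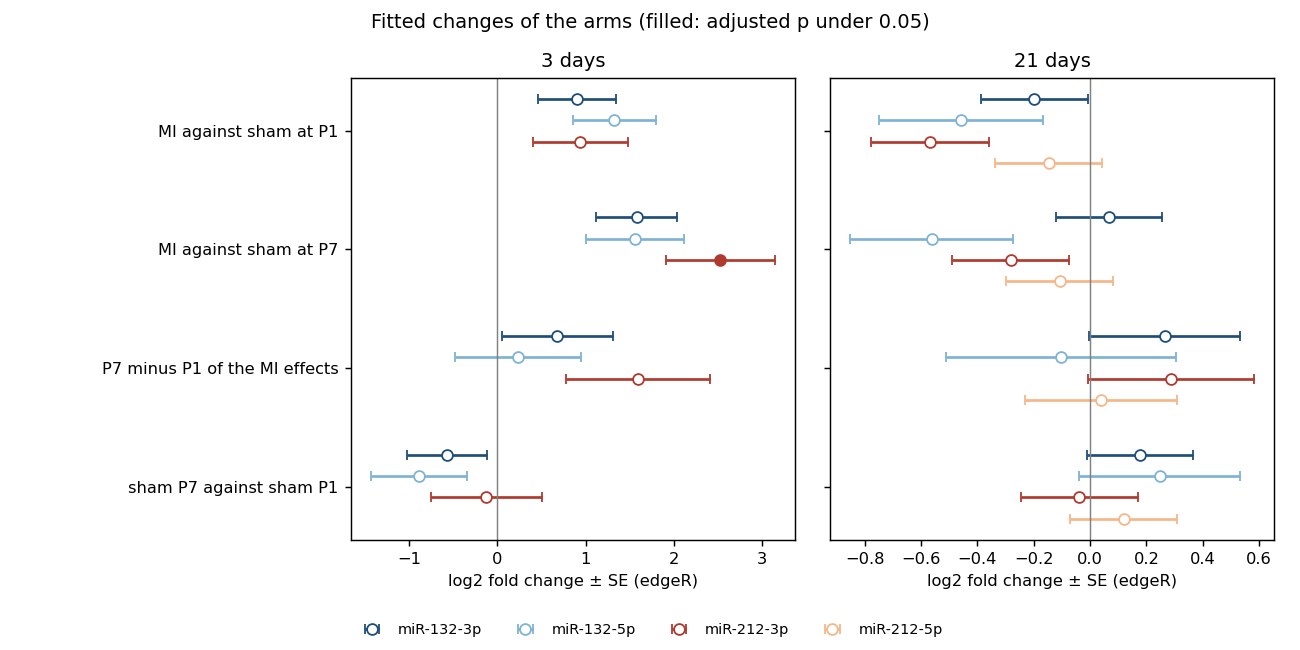
Log2 fold changes with SE bars from edgeR for each arm and comparison, at 3 days (left) and 21 days (right), on axes of different width. The filled point, miR-212-3p after MI at P7 and 3 days (2.52), is the one with an adjusted p under 0.05; miR-212-5p has no point at 3 days because it did not pass the filter.

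Ratios of counts between arms of a library do not depend on how that library was scaled. They were compared with two-sided exact permutation tests, 18 in all, on log2 ratios with a pseudocount of 0.5. The ratio of miR-212-3p to miR-132-3p, arms with the same seed from different hairpins, was -2.37 ± 0.52 in MI P7 and -3.30 ± 1.41 in sham P7 at 3 days (SD, n = 4 each, exact permutation p = 0.343). Sham P7 replicate 3, with no miR-212-3p read, had the lowest value, -4.86, and sham replicates 1 and 2 were at -2.15 and -2.07, above 3 of the 4 MI libraries. The groups overlapped, so a larger change of miR-212-3p than of miR-132-3p was not shown.

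At P1 and 3 days that ratio was -3.70 ± 0.29 in MI and -3.71 ± 0.33 in sham hearts (exact permutation p = 0.943). At P1 and 21 days it was -2.82 ± 0.066 in MI and -2.45 ± 0.083 in sham hearts (SD, n = 3 each), so that the reads of miR-212-3p were 13.5 to 14.8% of those of miR-132-3p in MI and 17.2 to 19.3% in sham hearts. The 3 MI libraries lay below the 3 sham libraries. The exact permutation p was 0.1, the smallest that 3 against 3 libraries allow, and 0.6 adjusted over the 18 tests.

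The ratio of the 5p to the 3p arm of Mir132 at 3 days and P1 was -2.28 ± 0.43 in MI and -2.81 ± 0.24 in sham hearts (SD, n = 4 each, exact permutation p = 0.0857, adjusted 0.6). After MI at P7 it was -3.03 ± 0.39 against -2.93 ± 0.39 (exact permutation p = 0.714). The MI P7 libraries of 21 days had the widest spread of this ratio, from -4.84 in replicate 3 to -3.26 in replicate 2. For Mir212 the 5p to 3p ratio at 21 days and P1 was -0.77 ± 0.25 in MI and -1.21 ± 0.12 in sham hearts, without overlap (exact permutation p = 0.1, adjusted 0.6). It shares the reads of miR-212-3p with the miR-212-3p to miR-132-3p ratio, so these ratios are not independent. No ratio passed after adjustment.

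**Figure D5:**
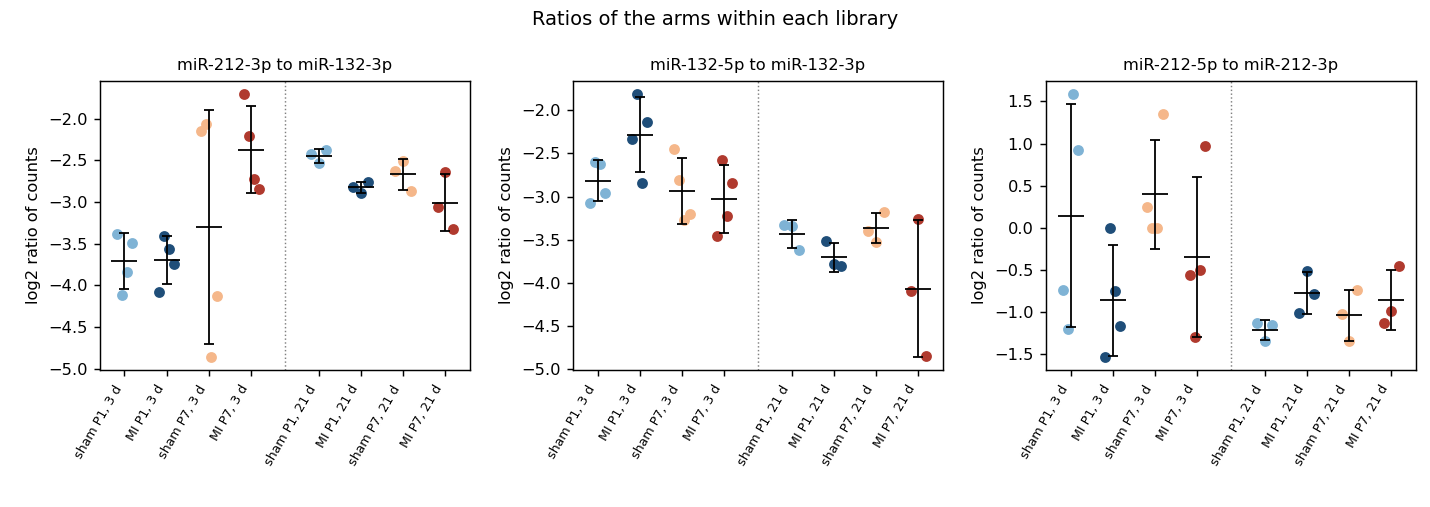
Log2 ratios of counts within each library for 3 pairs of arms, with points for libraries and bars for mean ± SD; the dotted line parts the 3-day from the 21-day libraries, whose kits differ and which are not compared. The miR-212-3p to miR-132-3p ratio of sham P7 at 3 days spans -4.86 to -2.07, and at 21 days MI P1 lies below sham P1.

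Across the 16 libraries of 3 days, Pearson correlations of log2 CPM between the arms were 0.902 for miR-132-3p with miR-132-5p, 0.745 for the 3p arms, 0.735 for the arms of miR-212, 0.634 for miR-132-5p with miR-212-3p, 0.43 for miR-132-3p with miR-212-5p and 0.288 for the 5p arms. Without the 4 sham P1 libraries the 6 values ran from 0.342 to 0.886. Across the 12 libraries of 21 days they were 0.246, 0.534, 0.382, 0.733, 0.508 and 0.175 in the same order, so the highest pair was miR-132-3p with miR-132-5p at 3 days and miR-132-5p with miR-212-3p at 21 days. These describe the libraries: all arms of a library share its depth and scaling, and group differences enter the value.

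By the same measure, and among 347 miRNAs with a mean of at least 10 CPM, miR-212-3p at 3 days was most like miR-214-5p (0.882), miR-29a-3p (0.832), miR-679-5p (0.824), miR-140-3p (0.812) and miR-27b-3p (0.766). miR-214-5p, from a hairpin known from fibroblasts, and miR-29a-3p, known to repress collagen messages, rose after MI at P7 and 3 days by 2.57 ± 0.56 and 1.69 ± 0.35 (SE, log2, edgeR adjusted p of 0.0113 and 0.00781). miR-679-5p, miR-140-3p and miR-27b-3p did not pass in that comparison (1.46, 0.97 and 0.84, edgeR adjusted p of 0.0887, 0.0585 and 0.168). miR-132-3p was most like miR-134-5p (0.885), miR-140-3p (0.856), miR-409-3p (0.853), miR-411-5p (0.814) and miR-425-5p (0.813). Of these, miR-134-5p and miR-409-3p, both of the imprinted Dlk1-Dio3 cluster, rose by 2.14 ± 0.32 and 2.07 ± 0.27 in that comparison (edgeR adjusted p of 0.000589 and 0.000314). miR-411-5p, of the same cluster, had 1.33 ± 0.46 and miR-425-5p 0.83 ± 0.33 and did not pass (edgeR adjusted p of 0.119 and 0.154). With the title code as a random effect none of these neighbours was called.

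At 21 days, among 282 miRNAs, miR-212-3p was most like miR-582-3p (0.691), miR-223-3p (0.680), let-7c-1-3p (0.658), miR-106b-3p (0.633) and miR-674-3p (0.625). miR-582-3p fell by 2.92 on the log2 scale after MI at P1 (SE 0.38, edgeR adjusted p = 0.00155). miR-132-3p was most like miR-27a-3p (0.797), miR-34a-5p (0.784), miR-223-3p (0.755), miR-23a-3p (0.739) and miR-23b-3p (0.708). None of the 5 nearest miRNAs of either 3p arm was the same at 3 and 21 days.

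Other miRNAs known to promote cardiac hypertrophy, a list of 14, and those known to restrain it, a list of 11, were set beside the cluster. At 3 days after MI at P7, 1 of the 14 promoting miRNAs passed, the growth-linked miR-222-3p (1.40 ± 0.30), and 10 of 14 had a positive value, with a median of 0.34 where all miRNAs had -0.015. Of the 11 restraining miRNAs 1 passed, miR-29a-3p (1.69 ± 0.35), with a list median of -0.56. Over all tested miRNAs 5.61% passed, and with the title code as a random effect none of either list did (adjusted p = 0.996 for miR-222-3p and for miR-29a-3p). The muscle miRNAs miR-1a-3p and miR-133a-3p, on that list, had -0.78 ± 0.88 and -0.68 ± 0.42.

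At 3 days after MI at P1, 0 of the 14 promoting miRNAs passed in edgeR. An unadjusted p under 0.05 in edgeR was seen for 2 of them and for 159 of all 446 miRNAs. DESeq2 called 4 of the 14, and its share over all miRNAs is not given here. In all, 13 of 14 had a positive value and the median was 0.65, against 0.027 over all miRNAs. miR-21a-5p, known from stressed hearts and fibroblasts, had 2.49 ± 0.90 (SE, edgeR adjusted p = 0.0571). Of the restraining list 1 fell, miR-133a-3p, at -1.48 ± 0.43 (SE, edgeR adjusted p = 0.0283), where 18.4% of all tested miRNAs passed. It is also a cardiomyocyte marker. Its call was lost without the code 1103 libraries (-0.21, edgeR adjusted p = 0.716) and with the code as a random effect (-1.16, limma-voom adjusted p = 0.386). The promoting list had 7 of 14 positive values and a median of 0.0028 without the code 1103 libraries, and 14 of 14 and a median of 1.68 without the code 1078 libraries.

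At 21 days after MI at P7, 4 of the 14 promoting miRNAs rose: miR-199a-5p (2.10 ± 0.33), miR-199b-5p (1.40 ± 0.25), miR-21a-5p (1.49 ± 0.32) and miR-221-3p (1.18 ± 0.24). Of the restraining list 2 fell, miR-133a-3p (-1.01 ± 0.21) and miR-378a-3p (-0.93 ± 0.21). Over all tested miRNAs 22.1% passed. Of those named, miR-199a-5p and miR-21a-5p are also on the fibroblast-associated list, whose 3 members all rose, and miR-133a-3p is on the cardiomyocyte list, of which it was the 1 of 5 called. The list medians were 0.33 and -0.29 against 0.030 over all miRNAs. DESeq2 called 8 of the 14 and 3 of the 11. Its share over all miRNAs is not given here, and the 22.1% is that of edgeR. miR-132-3p in the same comparison was at 0.067 ± 0.19. After MI at P1 and 21 days, 0 of the 14 and 0 of the 11 passed in edgeR or in DESeq2. There, 1 and 2 had an unadjusted p under 0.05, with medians of -0.038 and 0.0495.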

How the data were processed

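Small RNA was sequenced from 28 left ventricular libraries, grouped by operation, operation day and follow-up from the labels. The authors deposited whole-number counts per hairpin and mature miRNA, not normalized; Bowtie2 2.2.2, edgeR and GRCm38 are named, per the submitters' processing notes, while the counting tool and the handling of adapters and molecular identifiers are not stated there. Per the labels' protocols, 3-day libraries used the Qiagen QIAseq kit and 21-day libraries the Illumina TruSeq kit, so each follow-up was fitted alone.

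The highest count over hairpins was kept per mature name. edgeR 4.0.16 (R 4.3.3) was run with TMM scaling, filterByExpr at its defaults (minimum count 10), library sizes recomputed after the filter (chosen after both ways had been seen; miRNAs called after MI at P1 and 3 days were 82, and 86 the other way) and the robust quasi-likelihood F test on the 4 groups of a follow-up. It tested 446 miRNAs at 3 days and 598 at 21 days, with adjusted p under 0.05 as a call. SE is the log2 fold change divided by the root of F. Of the 4 arms, 3 passed the filter at 3 days and 4 at 21 days. The fit was tested on simulated data. DESeq2 1.42.0 and limma 3.58.1 were alternatives. Values by title code for the lists, the nearest patterns and the correlations were added after seeing the data. No pair of libraries looked like copies (chi-square per degree of freedom of at least 33 for any pair of replicates).

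Named miRNAs are the 4 arms, the 5 nearest patterns of each 3p arm, and called or best-known members of the lists. The members and lists were chosen with earlier results of these data known.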

Additional observations from a re-analysis of the deposited data

Results flagged for a closer look

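Sham P1 replicate 2 of 3 days had 10.3 CPM of miR-132-5p (10.32), where the other 3 sham P1 libraries had 2.89 to 3.50 CPM. Its gap to the nearest library was 0.919 of the group's range, above Dixon's 95% critical value for 4 libraries. It was the 1 such value among 28 groups examined, and chance gives about 1 in 20.

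Over the 4 arms and both operation days, 3 instances changed direction between follow-ups. In these, every MI library was above every sham library at 3 days and below at 21 days. How many of all miRNAs did so was not counted. Ranges lay apart upward at 3 days for 6.73% (P1) and 14.6% (P7) of tested miRNAs. At 21 days they lay apart downward for 10% (P1) and 18.7% (P7). The 3-day values at P1 also moved with the title codes of the sham libraries. After MI at P1, miR-132-5p had a log2 fold change of 1.32 at 3 days and -0.46 at 21 days. After MI at P7, miR-132-5p had 1.55 and -0.56. After MI at P1, miR-212-3p had 0.94 and -0.57. No value of these 3 instances passed in edgeR at either follow-up. These differences between follow-ups were not tested, because follow-up and library kit cannot be told apart.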

How the results depend on the processing

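The count of arms called after MI at P7 and 3 days, 1 in the main fit, was 3 with total count scaling, 3 without title code 1103, 3 with sham P1 of title code 1103 only, 2 with the DESeq2 Wald test, with limma-voom and in the fit of only those groups, 0 with no filter and 0 with the title code as a random effect; leaving out 1 library gave 0 to 2. After MI at P1 and 3 days, 0 in the main fit, it was 1 with DESeq2 size factors, with total count scaling and with the DESeq2 Wald test, 2 with title code 1103 only, and 0 to 2 leaving out 1 library. For the difference of these effects it was 1 with title code 1103 only (miR-212-5p, edgeR adjusted p = 0.0456). The cause of these changes was not tested. Calls over all miRNAs changed too. After MI at P7 and 3 days the main fit called 5.61%. Without title code 1103 it was 19.3%, and with that code only 19.2%. Total count scaling called 58 miRNAs there, all higher, against 25. At P1 it called 32, and DESeq2 size factors 65, against 82 in the main fit. With title code 1103 only, 75.8% were called at P1, against 18.4%, and 65.6% for the difference, against 0%. The share for the DESeq2 Wald test is not given here. Total count scaling moved the median of all miRNAs at 3 days by 0.30 (P1) and 0.48 (P7). The log2 fold change of miR-212-3p after MI at P7 and 3 days ran from 2.14 to 2.99 and passed in 22 of 27 alternatives; the filter of 10 CPM removed it and gave no value.

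Values that changed sign were uncalled in both settings. At 3 days the P7 minus P1 difference of miR-132-5p was -0.0465 with DESeq2 size factors, -0.0311 with no filter, -0.0315 with the DESeq2 Wald test, -0.38 with title code 1103 only, and -0.45 to 0.76 leaving out 1 library. The sham age difference with title code 1103 only was 0.0182 for miR-132-3p and 0.48 for miR-212-3p, and the latter ran from -0.53 to 0.32 leaving out 1 library. At 21 days total count scaling gave 0.0786 for miR-212-3p and 0.24 for miR-212-5p after MI at P7, 0.45 for the difference of miR-132-5p, and, between sham ages, -0.0513 for miR-132-3p and -0.10 for miR-212-5p. Leaving out 1 library at 21 days gave -0.11 to 0.22 for miR-132-3p after MI at P7, -0.35 to 0.23 and -0.0601 to 0.14 for the differences of miR-132-5p and miR-212-5p, and -0.15 to 0.0555 for miR-212-3p between sham ages.

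With the title number as a replicate block at 21 days, miR-212-5p had 0.00479 after MI at P1 and -0.11 for the difference, miR-212-3p had 0.00463 between sham ages, and no arm was called. Of 15 pairs of libraries with the same number, 3 correlated above 0.1, so the numbers were not taken to pair them.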
